A study of Sus scrofa with 8 samples.

Results

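Promoters that carried H3K4me3 without H3K27ac were described in pig embryonic fibroblasts (PEFs), cultured cells of the connective tissue lineage. A gene was taken as H3K4me3-only when a peak lay within 1 kb of its transcription start site (TSS) in both H3K4me3 replicates and in neither H3K27ac replicate. The members were thus chosen by the called peaks of both marks. Of 19487 protein-coding RefSeq genes on chromosomes 1 to 18 and X of Sscrofa11.1, 1608 met this rule, which is 8.25% of all genes and 12.0% of the 13423 genes with H3K4me3 in both replicates. They were set beside the 11476 genes (58.9%) with both marks in all 4 lists. The remaining 339 genes with H3K4me3 had H3K27ac in 1 replicate.

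The cells were isolated from fetuses of Large White pigs at 35 days and cultured for 24 h, with no treatment, and ChIP-seq was carried out for H3K4me3, H3K27ac and CTCF with 2 replicates each. All libraries share this breed, age and culture, and the labels do not state whether the replicates came from separate fetuses or cultures, so the spread between them may be technical. The analysed peak lists held 37932 and 43516 H3K4me3 peaks, 74983 and 81164 H3K27ac peaks, and 40289 and 44682 CTCF peaks. Each peak has a fold enrichment over the control, and since no read counts are listed, the reads that support a given peak are not known. All 14 fibroblast markers found in the annotation had both marks, although FN1 had H3K4me3 of only 3.13 and 5.38 fold. None of the 4 blood markers had H3K4me3 within 1 kb in either replicate, although SPI1, a factor of myeloid cells, had H3K27ac of 12.4 and 17.0 fold there. All 5 epithelial markers were H3K4me3-only, and the neural, muscle, endothelial and liver sets were mixed.

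H3K4me3, the trimethylation of lysine 4 of histone H3, is laid down at gene starts by SET1 and MLL complexes, most of all in stretches rich in CpG dinucleotides. H3K27ac, the acetylation of lysine 27, is written by the acetyltransferases p300 and CBP at active promoters and enhancers. The same lysine can carry the methylation of the Polycomb complex, and promoters of developmental genes that hold this methylation together with H3K4me3 are known as bivalent. Polycomb methylation was not measured in these samples, and in bulk chromatin a mark in few cells cannot be told apart from a weak mark in all cells.

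The promoter sequences below are shown because the members differed widely in CpG content, a feature the rule did not use. They are the 4 H3K4me3-only developmental transcription factor genes of highest H3K4me3 fold enrichment, followed by THY1 and TWIST1, the pair of fibroblast genes with both marks and the highest fold enrichment. Each runs 5′ to 3′ on the strand of the gene, from 250 bases before to 50 bases after the RefSeq TSS in Sscrofa11.1, and capitals mark each CpG.
FERD3L (chr9:88323172-88323471, minus strand): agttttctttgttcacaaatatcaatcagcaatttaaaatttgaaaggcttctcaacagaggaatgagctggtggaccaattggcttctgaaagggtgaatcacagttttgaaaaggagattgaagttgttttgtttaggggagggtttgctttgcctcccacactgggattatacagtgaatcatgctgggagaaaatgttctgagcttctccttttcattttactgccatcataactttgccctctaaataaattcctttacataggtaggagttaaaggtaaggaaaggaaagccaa
ONECUT2 (chr1:106751096-106751395, plus strand): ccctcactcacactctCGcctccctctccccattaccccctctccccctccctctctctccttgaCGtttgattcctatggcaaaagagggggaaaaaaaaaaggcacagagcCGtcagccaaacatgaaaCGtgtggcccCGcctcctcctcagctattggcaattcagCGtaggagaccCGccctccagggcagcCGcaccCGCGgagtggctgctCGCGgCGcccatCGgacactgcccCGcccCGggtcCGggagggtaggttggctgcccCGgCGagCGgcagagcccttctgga
PAX5 (chr1:237785405-237785704, minus strand): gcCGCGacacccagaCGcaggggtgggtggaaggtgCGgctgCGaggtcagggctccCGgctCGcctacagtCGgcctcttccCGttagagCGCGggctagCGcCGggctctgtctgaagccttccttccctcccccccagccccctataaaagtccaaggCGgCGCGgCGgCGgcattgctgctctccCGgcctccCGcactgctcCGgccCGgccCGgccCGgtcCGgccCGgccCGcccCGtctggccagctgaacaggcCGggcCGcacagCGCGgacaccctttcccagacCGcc
FOXB1 (chr1:112000501-112000800, minus strand): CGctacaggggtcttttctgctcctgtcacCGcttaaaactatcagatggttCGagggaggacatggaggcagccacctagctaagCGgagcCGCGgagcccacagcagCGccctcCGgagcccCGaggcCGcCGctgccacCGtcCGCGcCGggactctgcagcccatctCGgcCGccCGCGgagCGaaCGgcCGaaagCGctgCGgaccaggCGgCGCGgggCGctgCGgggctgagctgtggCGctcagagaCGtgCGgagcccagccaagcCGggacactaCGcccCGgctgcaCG
THY1 (chr9:46612642-46612941, minus strand): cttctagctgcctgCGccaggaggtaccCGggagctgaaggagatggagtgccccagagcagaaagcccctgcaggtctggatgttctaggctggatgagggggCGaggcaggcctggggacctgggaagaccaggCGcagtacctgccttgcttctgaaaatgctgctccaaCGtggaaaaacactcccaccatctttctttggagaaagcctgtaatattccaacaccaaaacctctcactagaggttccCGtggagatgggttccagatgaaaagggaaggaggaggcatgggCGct
TWIST1 (chr9:88290082-88290381, minus strand): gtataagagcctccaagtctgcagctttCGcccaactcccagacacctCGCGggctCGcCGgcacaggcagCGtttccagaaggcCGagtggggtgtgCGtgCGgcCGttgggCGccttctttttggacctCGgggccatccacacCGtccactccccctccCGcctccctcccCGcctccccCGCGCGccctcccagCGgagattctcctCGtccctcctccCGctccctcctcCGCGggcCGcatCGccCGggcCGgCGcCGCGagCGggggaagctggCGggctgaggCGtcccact

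The windows follow the annotated TSS. Over all members, the H3K4me3 summit lay at -3485 to 4559 bp from it in replicate 1 (downstream positive), with a median of 204 bp. A window can thus miss the most marked stretch. FERD3L, a bHLH factor of the neural tube, had 0 CpGs in its window. ONECUT2, a homeobox factor of liver and neurons, had 20, PAX5, a factor of B cells, had 33, and FOXB1, a forkhead factor of the brain, had 36. CpG number did not separate them from the fibroblast genes shown, as THY1, a surface glycoprotein, had 7 CpGs, and TWIST1, a mesenchymal bHLH factor, had 33. A GC box (GGGCGG on either strand) was found in ONECUT2, PAX5 and FOXB1, and a TATA box (TATAAA) only in PAX5 among these 6 windows.

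H3K4me3 itself was weaker and narrower at the H3K4me3-only promoters. The median fold enrichment of the strongest peak within 1 kb was 20.6 in the first library and 11.4 in the second. At promoters with both marks these medians were 55.5 and 26.96. Replicate 1 gave higher fold enrichment than replicate 2 in both groups, so the groups were read within each replicate. Since the rule uses the presence of these peaks, the values describe the groups and were not tested. The middle 50% of H3K4me3-only promoters ranged from 11.7 to 30.8 in replicate 1 and from 7.34 to 16.1 in replicate 2. The groups overlapped in part, as 112 H3K4me3-only promoters (6.97%) in replicate 1 and 141 (8.77%) in replicate 2 were above the lower quartile of promoters with both marks.

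**Figure D1:**
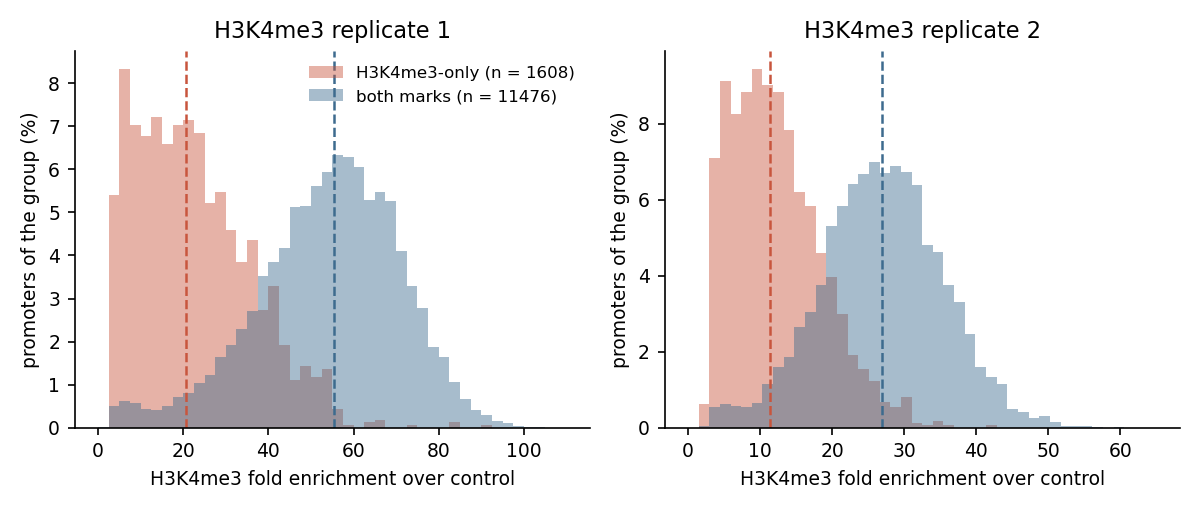
Distribution of H3K4me3 fold enrichment over the control (x axis) for 1608 H3K4me3-only promoters and 11476 promoters with both marks, in percent of each group (y axis), for replicates 1 and 2. Dashed lines mark the medians, 20.6 and 55.5 in replicate 1 and 11.4 and 26.96 in replicate 2, and the tails of the groups overlap.

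The peaks had a median width of 1577 and 1712.5 bp in the H3K4me3 replicates, whereas those at promoters with both marks were 2941 and 3115 bp wide. That is 1645 ± 95.8 bp against 3028 ± 123 bp (SD, n = 2). The rule uses the presence of these peaks, so the widths are a description and were not tested. Across the 1608 genes, fold enrichment in the H3K4me3 libraries had a rank correlation (Spearman's rho) of 0.907. Genes are not independent replicates, and these share 1558 peaks in each library.

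The share of H3K4me3 promoters that lacked H3K27ac varied with the strength of H3K4me3. When the 13423 promoters were divided into 10 equal groups by mean H3K4me3 fold enrichment, 832 of 1343 (62.0%) in the lowest group were H3K4me3-only, as were 34.6% in the second and 12.7% in the third. In the fifth group the share was 3.05%, and in each of the 4 highest groups it was between 0.149% and 0.373%. These shares use the marks of the rule and are a description. The lowest group still held 428 promoters with both marks (31.9%), so a weak H3K4me3 peak was found with and without H3K27ac.

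The 10 members of highest mean H3K4me3 fold enrichment, among those with a symbol other than LOC, included genes of neurons and of metabolism. UNC13B, which primes synaptic vesicles for release, had a fold enrichment of 66.1 and 33.8 in replicates 1 and 2, and its nearest H3K27ac peak was 10765 and 10781 bp away. SLC6A4, the serotonin transporter, reached 59.5 and 30.3, with H3K27ac at 17621 and 19551 bp. ZNF385B, a zinc finger gene, reached 63.6 and 30.7, with H3K27ac at 74449 and 75533 bp. These values lie above the median of promoters with both marks in each replicate, and LIPI, a lipase gene, was close to it in replicate 1 with 52.1 and above it in replicate 2 with 34.1. RBM11, which codes for an RNA-binding protein, starts beside LIPI and shares its peak.

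The other 6 of these 10 had an H3K27ac peak between 1 and 2 kb away in at least 1 replicate. LRRC24 had the highest H3K4me3 in replicate 1, with 91.0 and 35.0, and H3K27ac lay 1101 and 1053 bp from its TSS. The divergent pair PSD and FBXL15 shared an H3K4me3 peak of 83.1 and 27.4, with H3K27ac at 1675 and 1601 bp from the start of PSD. SH2B2, an adaptor of insulin signalling, had H3K27ac at 1392 and 1199 bp, PTK2B, a tyrosine kinase, at 1110 and 1365 bp, and PYGB, the brain form of glycogen phosphorylase, at 11132 and 1248 bp. LOC100518827, with H3K4me3 of 55.3 and 41.8 and H3K27ac at 1119 and 1084 bp, and LOC102160250, with 66.1 and 30.8 and H3K27ac at 1049 and 1085 bp, ranked above ZNF385B. With these genes counted, 8 of the 10 strongest members had H3K27ac between 1 and 2 kb away in at least 1 replicate, compared with 4.98% of all members.

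H3K4me3-only promoters lay at widely varying distances from H3K27ac, all above the 1 kb set by the rule. Distances at genes with no H3K4me3 were not set beside them, so these values have no background. The median distance from the TSS to the nearest H3K27ac peak was 31842 bp in replicate 1 and 29434 bp in replicate 2. Taking the nearer of the replicates, 80 of the 1608 promoters (4.98%) had H3K27ac between 1 and 2 kb, 115 (7.15%) between 2 and 5 kb, and 184 (11.4%) between 5 and 10 kb. There were 675 (42.0%) between 10 and 50 kb and 287 (17.8%) beyond 100 kb, up to 1.29 Mb. The H3K4me3 peak itself touched an H3K27ac peak at 53 of the promoters in replicate 1 and at 73 in replicate 2, a count not made for other genes.

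**Figure D2:**
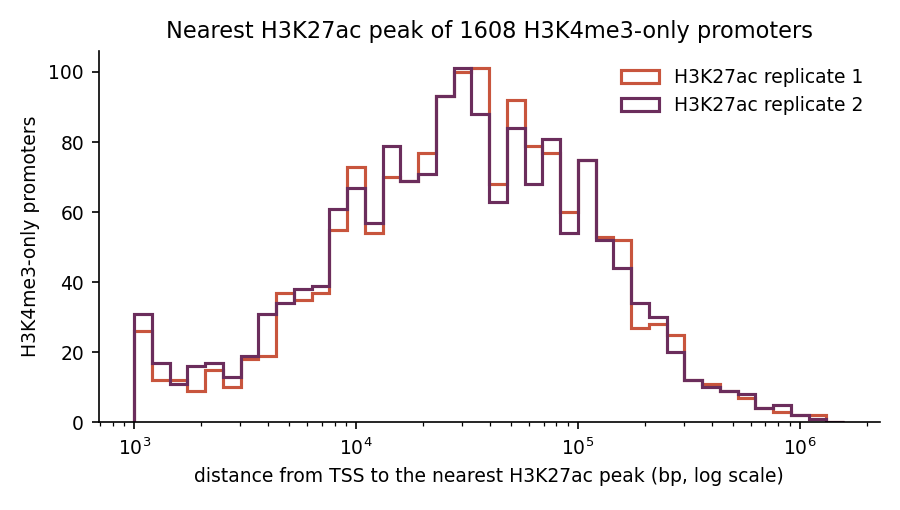
Number of H3K4me3-only promoters (y axis) by the distance from the TSS to the nearest H3K27ac peak in bp (x axis, log scale), for each H3K27ac replicate. The distribution starts at the limit of 1 kb set by the rule and has its median at 31842 bp in replicate 1 and 29434 bp in replicate 2.

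At the limit of the rule, the members just inside were SLC14A1, with H3K27ac at 1003 bp in replicate 1 and 29494 bp in replicate 2, SALL4, with 1004 and 30845 bp, and FGF16, with 1123 and 1011 bp. Just outside were KLHDC2, with 984 and 1053 bp, RAB40B, with 1051 and 986 bp, and TBX5, with 1095 and 980 bp. Several of these genes lie within a few bases of the limit, and for SLC14A1 and SALL4 a single replicate placed H3K27ac near it.

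Acetylation elsewhere in the gene was present at a part of the members. Among the 404 members with another annotated transcript start more than 1 kb from the gene TSS, 101 (25%) had H3K27ac at such a start in both replicates. An H3K27ac peak lay somewhere in the gene body in both replicates at 506 of the 1608 genes (31.5%). Neither share was taken over all protein-coding genes or over genes with both marks. They thus have no background and cannot be called high or low.

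Genes of embryonic patterning were H3K4me3-only more often than protein-coding genes as a whole. Most members were in none of the gene lists used here, which held 328 of the 1608 (20.4%). The lists held 8.28% of the genes with both marks. Of 305 developmental transcription factor genes of the homeobox, FOX, SOX, GATA, T-box and bHLH families, 117 (38.4%) were H3K4me3-only, compared with 8.25% of all protein-coding genes, and 124 (40.7%) had both marks, compared with 58.9%. Counting the peak summit in place of any base of the peak lowered the first count to 77 genes, or 25.2%. These are counts over genes chosen with earlier results known, and no test was made of them.

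The homeobox genes, which set position and cell identity in the embryo, had 69 of 164 members H3K4me3-only (42.1%) and 67 with both marks. Among the 69, H3K4me3 fold enrichment ran from 3.82 to 50.8 in replicate 1 and from 3.09 to 31.5 in replicate 2. PAX5 had 50.8 and 22.4, with H3K27ac at 2276 and 2280 bp. LHX6, a LIM homeobox factor of forebrain interneurons, had 44.5 and 20.8, with H3K27ac at 30143 and 13043 bp. ONECUT2 had 44.2 and 29.6, with H3K27ac at 121066 and 121025 bp, so that equally strong H3K4me3 stood at very different distances from acetylation.

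Families within this list differed, in a division made after the values were seen. The HOX genes, which pattern the body axis, mostly had both marks, 28 of 36, and 4 were H3K4me3-only. These were HOXA13, with H3K4me3 of 34.7 and 16.6, HOXB13, with 8.99 and 7.25, HOXC12, with 4.49 and 3.09, and HOXD12, with 18.3 and 9.35. All are posterior members of their clusters, but the other posterior HOX genes were not set beside them. Of the 41 PAX, LHX, NKX, DLX and sine oculis homeobox genes, 22 (53.7%) were H3K4me3-only and 14 had both marks.

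Of the 84 FOX, SOX, GATA and T-box genes, 20 were H3K4me3-only (23.8%) and 41 had both marks. FOXB1 had H3K4me3 of 40.2 and 29.2, TBX20, a heart factor, 32.8 and 15.6, and FOXQ1, a forkhead factor, 30.3 and 14.8. The nearest H3K27ac was at 59223 and 59315 bp from FOXB1, but at 7297 and 7190 bp from TBX20 and 6777 and 7017 bp from FOXQ1.

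The bHLH genes, which include the proneural and myogenic factors, had the largest share of these 19 lists, 28 of 57 (49.1%), with 16 carrying both marks. FERD3L had 49.3 and 28.9, ASCL4, an achaete-scute factor, 42.1 and 19.5, and MYF6, a factor of muscle differentiation, 35.7 and 24.8. MYF6 was close to the limit of the rule, with H3K27ac at 1016 and 1022 bp. Its neighbour MYF5 was weaker, with 9.56 and 6.22, and MYOD1, which starts the muscle programme, had 5.74 and 5.42. MYF5, MYF6 and MYOD1 are factors of skeletal muscle, not of fibroblasts.

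Secreted signals of development showed a similar share, with 30 of 72 WNT, FGF, BMP, GDF, hedgehog and related ligand genes H3K4me3-only (41.7%) and 23 with both marks. WNT7B had H3K4me3 of 42.3 and 18.6, with H3K27ac at 1175 and 1114 bp, WNT16 37.1 and 20.8, and BMP6 36.3 and 18.6. H3K27ac was farther from WNT16, at 59935 and 24807 bp, and from BMP6, at 49755 and 49741 bp. Within the list, which was divided after the values were seen, 11 of 19 WNT genes and 7 of 22 FGF genes were H3K4me3-only.

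Ion channel, receptor and adhesion genes showed shares of a similar size. Of 120 voltage-gated and related ion channel genes, 49 were H3K4me3-only (40.8%) and 24 had both marks, and of 92 neurotransmitter receptor genes, 37 were H3K4me3-only (40.2%) and 21 had both marks. KCND2, a potassium channel subunit, had 51.1 and 26.4, and its nearest H3K27ac peak was 309220 and 240940 bp away. KCNC4, another potassium channel subunit, had 49.4 and 17.7, and CACNG4, a calcium channel subunit, 43.98 and 19.2. Over the 49 channel genes the median H3K4me3 was 21.9 and 11.6, close to that of all members.

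Among the receptors, GABRB1, a subunit of the GABA-A receptor, had 50.4 and 29.5, ADRA1A, an adrenergic receptor, 43.2 and 21.3, and CHRM2, a muscarinic acetylcholine receptor, 37.7 and 23.4. The median distance to the nearest H3K27ac peak was 101 kb over the 37 receptor genes and 36.6 kb over the 49 channel genes, compared with 28.0 kb over all 1608 members. Of 60 adhesion genes, cadherins, protocadherins and synaptic adhesion proteins, 24 were H3K4me3-only (40%) and 18 had both marks. Most are known from neurons, but the 24 include CDH1, the cadherin of epithelia, and CDH15, a cadherin of muscle. CNTN1 had 52.4 and 26.99, PCDH20 46.8 and 29.6, and NLGN1, a synaptic adhesion protein, 49.3 and 23.9, and the median distance over the 24 genes was 141 kb. The receptor and adhesion genes thus stood farther from acetylation than the transcription factor genes, at 31.8 kb.

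Other lists were nearer to the background of 8.25% or under it. Of 331 solute carriers, 43 (13.0%) were H3K4me3-only, among them SLC6A4, SLC29A2, a nucleoside transporter, with 45.1 and 18.98, and SLC22A16, with 40.3 and 16.7. Among cilium and axoneme genes the count was 9 of 86 (10.5%), led by TEKT1, with 53.6 and 28.7, DNAH9, a dynein heavy chain, with 38.0 and 18, and SPAG6, with 16.7 and 9.82. Among germline genes it was 5 of 66 (7.58%), of which 42 did not have H3K4me3 in both replicates. TDRKH, TDRD6 and TDRD10, all with tudor domains, were the strongest of these 5, between 13.4 and 24.5 in replicate 1. The numbered ZNF genes had 7 of 254 (2.76%), with ZNF385B, ZNF536 (51.6 and 24.7) and ZNF804B (32.2 and 14.4) the strongest, and 218 had both marks.

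Lists of genes that every cell uses held no H3K4me3-only promoter. The counts were 0 of 85 cytosolic ribosomal protein genes, 0 of 48 proteasome genes and 0 of 78 oxidative phosphorylation genes, and 81, 45 and 77 of these had both marks. Among 26 fibroblast genes the count was also 0, and 24 had both marks. Of 43 Polycomb and trithorax genes, 40 had both marks, and CBX7, a Polycomb subunit, was the single H3K4me3-only gene, with 27.7 and 17.8. Of the histone list 2 genes were found, both with both marks, and no olfactory receptor gene was found under its family symbol.

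**Figure D3:**
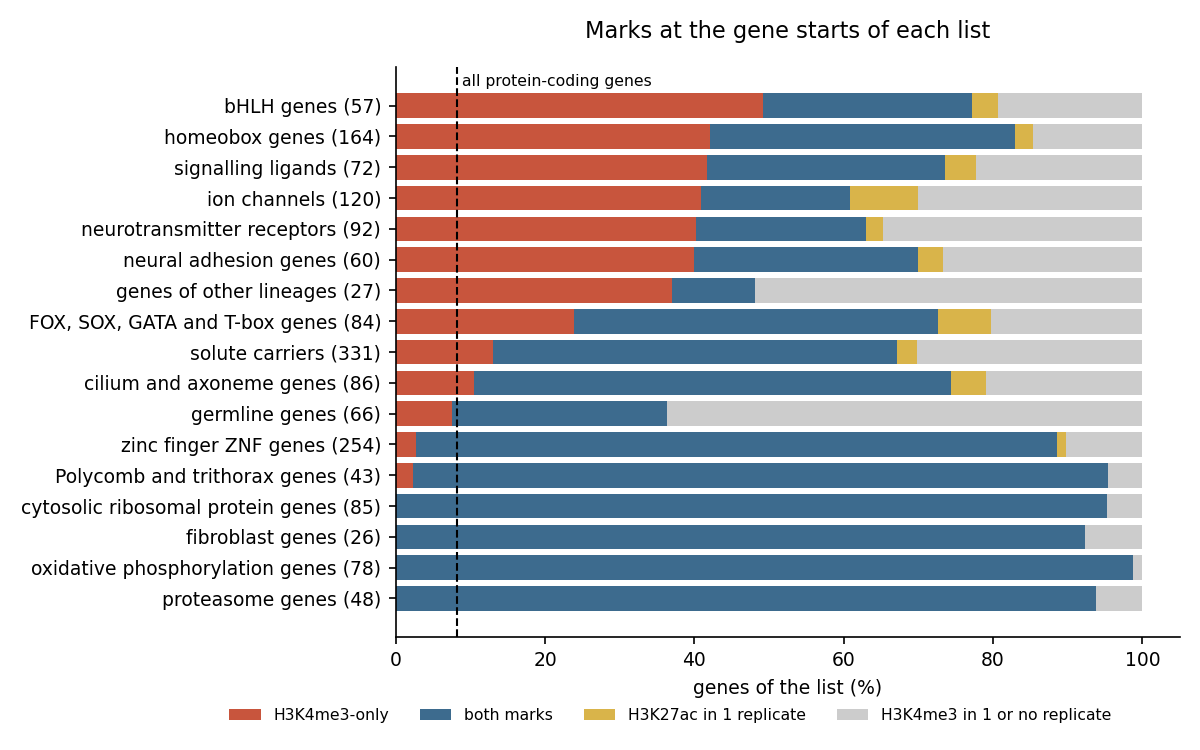
Share of the genes of each list (x axis, percent) that were H3K4me3-only, had both marks, had H3K27ac in 1 replicate, or lacked H3K4me3 in at least 1 replicate, with the number of genes in parentheses. The dashed line marks the 8.25% of all protein-coding genes that were H3K4me3-only, which bHLH (49.1%), homeobox (42.1%), ligand (41.7%), channel (40.8%), receptor (40.2%) and adhesion genes (40%) exceeded.

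Of 27 genes of other lineages, 10 (37%) were H3K4me3-only and 3 had both marks. All 5 epithelial markers were H3K4me3-only. EPCAM, an adhesion molecule of epithelia, had H3K4me3 of 42.7 and 20.6, and ESRP1, an epithelial splicing factor, had 34.8 and 16.5, whereas CDH1, which codes for E-cadherin, had 16.9 and 8.62, and the keratins KRT18 and KRT8 had 9.29 and 5.67, and 7.65 and 3.94. Of the 5 endothelial markers, KDR, a receptor of vascular growth factors, was H3K4me3-only with 25.4 and 13.3, and the other 4 had no H3K4me3 peak. Of the 5 neural markers found, NEUROD1, a bHLH factor, and SYP, a synaptic vesicle protein, were H3K4me3-only, with 11.7 and 10.5, and 3.51 and 2.32. NEUROG2, a proneural factor, had both marks, with H3K4me3 of 47.8 and 22.4 but weak H3K27ac of 2.92 and 3.11 fold. The H3K27ac medians of promoters with both marks were 16.8 and 19.95. SOX10 and RBFOX3 had no H3K4me3. Of the 4 muscle markers, MYF5 and MYOD1 were H3K4me3-only, and DES had both marks, with H3K4me3 of 9.29 and 5.63 and H3K27ac of 3.06 and 4.54. MYOG had no H3K4me3 peak within 1 kb, but H3K27ac of 7.06 and 5.26 fold there. Of the 4 liver markers, ALB and AFP had no H3K4me3, HNF4A had it in 1 replicate, and APOA1 had both marks, so genes of other lineages did not share a single pattern.

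Most members had no other member beside them, but some lay in runs. Ordered by TSS, 1161 of the 1608 had no H3K4me3-only gene next to them, and 4 runs held 4 or more neighbouring H3K4me3-only genes. Runs of 2 held 348 genes and runs of 3 held 78. Members are 8.25% of all protein-coding genes. How many would stand alone at that share without grouping was not computed, so these counts have no background. The longest was a run of 8 genes over 224 kb of chromosome 15, PRKAG3, WNT6, WNT10A, CDK5R2, FEV, CRYBA2, CFAP65 and IHH. CDK5R2, an activator of a neuronal kinase, had the strongest H3K4me3 of the run, with 40.7 and 17.8, and PRKAG3, a subunit of a kinase in skeletal muscle, the weakest, with 3.98 and 2.50. Their nearest H3K27ac peaks lay between 6172 and 51833 bp away.

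The second run held GSX1, PDX1, CDX2, URAD and FLT3 on chromosome 11, over 261 kb. PDX1, the factor of the pancreas, had 6.79 and 3.43, CDX2, the factor of the intestine, 9.01 and 5.92, GSX1, a neural factor, 19.7 and 12.7, URAD 7.18 and 4.61, and FLT3, a receptor of blood progenitors, 26.8 and 11.6. The nearest H3K27ac peak was at least 29867 bp from each of them. The other runs were GIMAP4, GIMAP7, GIMAP8 and LOC100519177 on chromosome 18, genes of an immune GTPase family where named GIMAP, and RAB9B, ZCCHC18, TMSB15B and SLC25A53 on chromosome X. In each of these, some neighbouring starts shared a single H3K4me3 peak, so the genes are not separate measurements.

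Of the H3K4me3 promoters of a chromosome, the H3K4me3-only share ran from 8.98% on chromosome 12 (72 of 802) to 18.8% on chromosome X (88 of 469), compared with 12.0% over all chromosomes. The exact binomial 95% interval was 7.09 to 11.2% for chromosome 12 and 15.3 to 22.6% for chromosome X. Such intervals cover counting error over genes only.

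H3K4me3-only genes were more isolated than genes with both marks. The nearest other protein-coding TSS was at a median of 42.7 kb, compared with 18.3 kb, and 74 of 1608 genes (4.60%) had another protein-coding TSS within 1 kb, compared with 2439 of 11476 (21.3%). The genes were somewhat longer, with a median of 31.9 kb and an upper quartile of 108 kb, compared with 26.3 and 66.4 kb. Single-exon genes made up 4.04% and 1.84%. These are features of the annotation that the rule did not use, although genes that share a promoter also share its peaks, and all 74 close neighbours were themselves H3K4me3-only.

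The sequence of the promoters was then compared. A promoter was called CpG-rich when the 300 bases around the TSS had a GC content of at least 50% and an observed over expected CpG ratio of at least 0.6. This held for 949 of 1608 H3K4me3-only promoters (59.0%, exact 95% interval 56.6 to 61.4%), 72.7% of promoters with both marks, 6.44% of those with no H3K4me3 and 50.8% of all protein-coding promoters. The median CpG ratio was 0.698, 0.792, 0.266 and 0.650, respectively. The GC content did not follow this order, with a median of 64.7% at H3K4me3-only promoters and 63.0% at promoters with both marks.

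The difference in CpG-rich share was not the same at all levels of H3K4me3. The 13423 promoters were divided into 4 equal groups by H3K4me3 fold enrichment. In the lowest group the order turned, and 58.5% of 1403 H3K4me3-only promoters and 50.1% of 1739 promoters with both marks were CpG-rich. In the second group the order was that of all promoters, with 65.1% of 175 and 73.1% of 3089. Among H3K4me3-only promoters, those of developmental transcription factors were more often CpG-rich (88 of 117, 75.2%) than the others (861 of 1491, 57.7%).

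Short motifs of widely used promoter factors were searched on both strands of the same 300 bases. None of the motifs contains another, although all but TATAAA and CCAAT hold a CpG. The ETS core CCGGAAG was found in 53 H3K4me3-only promoters (3.30%, interval 2.48 to 4.29%), 1955 promoters with both marks (17.0%, interval 16.4 to 17.7%), 1.89% of promoters with no H3K4me3 and 11.0% of all promoters. ETS factors are a large family of activators that bind the promoters of many widely expressed genes. Among CpG-rich promoters the shares were 3.79% of 949 and 21.1% of 8339. They differed in the same direction in the lowest of the 4 groups of H3K4me3 fold enrichment, at 3.21% and 8.63%, and among genes with no other protein-coding TSS within 1 kb, at 3.13% and 14.5%.

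The other motifs differed less. The NRF1 core GCATGCGC, of a factor of mitochondrial and other widely expressed genes, was found in 1.43% of H3K4me3-only promoters, 4.62% of promoters with both marks and 3.06% of all promoters, and the cyclic AMP response element TGACGTCA in 1.55%, 3.31% and 2.26%. In the lowest of the 4 groups of H3K4me3 fold enrichment these shares came close to each other, at 1.43% and 1.78% for NRF1, and 1.71% and 1.78% for the response element. In the second group they stood apart, at 1.71% and 4.44% for NRF1 and 0.571% and 3.17% for the response element, and among CpG-rich promoters the NRF1 shares were 1.69% and 5.83%. GGGCGG was frequent in both groups, at 63.4% and 67.2%, against 50.7% of all promoters and 14.9% of those with no H3K4me3. Its order turned in the lowest group, at 63.9% and 55.5%, and among CpG-rich promoters, at 84.9% and 80.5%. CCAAT was found in 29.6% and 35.9%, against 35.3% of all promoters, and TATAAA in 8.64% and 6.69%, against 10.8%. The order of TATAAA also turned in the lowest group, at 8.62% and 9.78%. A match describes these letters only and was not read as binding.

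**Figure D4:**
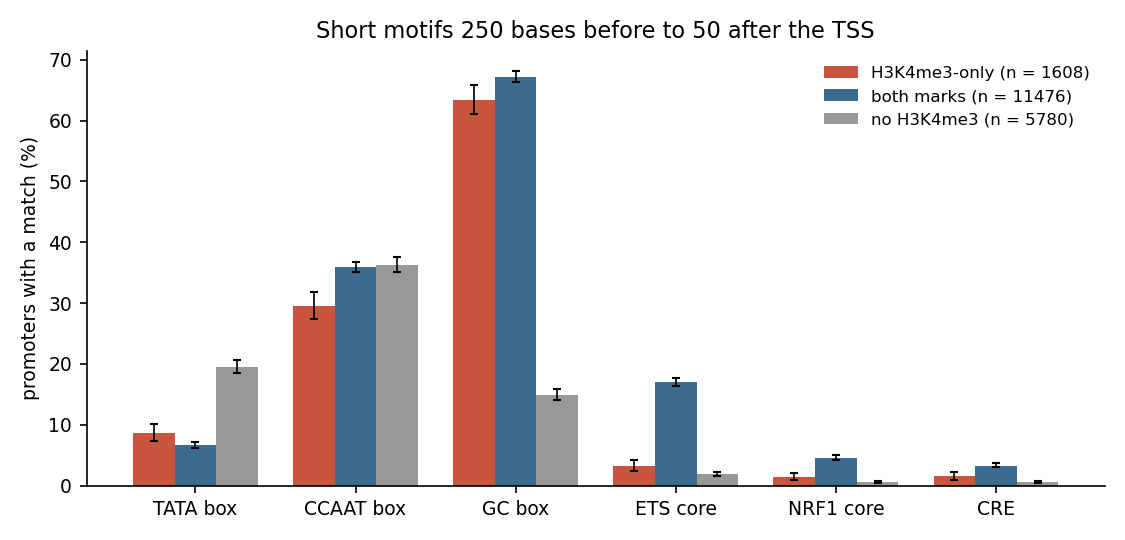
Share of promoters (y axis, percent) with a match to each motif in the 300 bases around the TSS, for 1608 H3K4me3-only promoters, 11476 promoters with both marks and 5780 promoters with no H3K4me3; error bars are exact binomial 95% intervals over genes. The ETS core differs most in proportion between the marked groups, at 3.30% and 17.0%, while the GC box is present in 63.4% and 67.2%.

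CTCF, a DNA-binding protein of insulators and loop anchors, was measured in libraries that the rule did not use. A CTCF peak lay within 1 kb of the TSS at 281 of 1608 H3K4me3-only promoters in replicate 1 (17.5%, interval 15.6 to 19.4%) and at 345 in replicate 2 (21.5%, interval 19.5 to 23.5%). At promoters with both marks the shares were 25.1% and 31.1%, at those with no H3K4me3 5.17% and 5.69%, and over all protein-coding genes 18.4% and 22.5%. H3K4me3-only promoters were therefore near the level of all genes and between the marked and unmarked groups in each replicate.

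The difference between H3K4me3-only promoters and promoters with both marks was -7.60 percentage points in the first CTCF library and -9.61 in the second, with a mean of -8.61 ± 1.42 (SD, n = 2). It was larger than the spread between the libraries, and the exact two-sided permutation test over the 2 libraries gave p = 0.5, the smallest p it can give. In the lowest of the 4 groups of H3K4me3 fold enrichment the shares were 16.6% and 20.7% at 1403 H3K4me3-only promoters against 23.9% and 28.5% at 1739 promoters with both marks, and in the second group 22.9% and 25.7% of 175 against 25.2% and 32.1% of 3089. In the third group, which held 22 H3K4me3-only promoters, the order turned, with 36.4% and 45.5% against 26.4% and 33.0%, and none of the 8 in the highest group had CTCF. In each of 4 equal groups by CpG ratio the H3K4me3-only share was the lower of the groups, between 14.5% and 18.8% in replicate 1, against 24.1% to 26.4%.

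**Figure D5:**
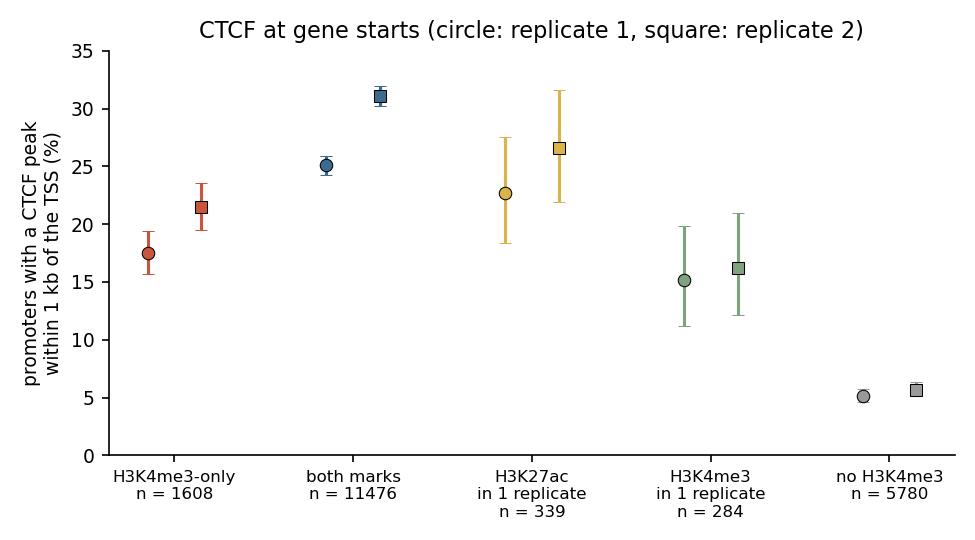
Share of gene starts with a CTCF peak within 1 kb (y axis, percent) by group of histone marks, for CTCF replicate 1 (circles) and replicate 2 (squares), with exact binomial 95% intervals over genes. H3K4me3-only promoters, at 17.5% and 21.5%, lie under promoters with both marks, at 25.1% and 31.1%, and above those with no H3K4me3, at 5.17% and 5.69%.

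Taken as a set, H3K4me3-only developmental transcription factor genes had a lower CTCF share than the rest of the members. CTCF was within 1 kb at 8.55% and 12.8% of the 117 H3K4me3-only factor genes in the CTCF libraries, against 18.2% and 22.1% of the other 1491 members. The factor genes with both marks did not show this, at 25.8% and 32.3% of 124. Their H3K4me3 peaks also differed in width, with medians of 2423 and 3060 bp at the 117 H3K4me3-only factor genes, 1543 and 1682 bp at the other members, and 5924 and 6679.5 bp at the factor genes with both marks. The fold enrichment of the 117, at a median of 17.8 and 10.9, was close to that of the other members, at 21.0 and 11.4. As a set, these genes thus had wider but not stronger H3K4me3 than the other members. Mean width had a median of 3051 bp at the homeobox and 3208 bp at the FOX, SOX, GATA and T-box members. At the 28 bHLH members it was 1646 bp. CTCF was at 5 and 6 of these 28, 4 and 6 of the 69 homeobox members, and 1 and 3 of the other 20. The bHLH members thus shared neither the wider peaks nor the lower CTCF share.

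LOC110256833 had the widest mean H3K4me3 peak, with 3737 bp in replicate 1 and 29796 bp in replicate 2. Among members with a symbol other than LOC, the 5 widest H3K4me3 peaks by the mean of both replicates were at OLIG2 (5640 and 9143 bp), NKX6-1 (7060 and 7630 bp), PCDH10 (7082 and 7367 bp), POU3F3 (7986 and 6295 bp) and SKOR1 (3890 and 9865 bp). Their order is not resolved, since the replicates of OLIG2 and SKOR1 differed by more than the means of the 5 genes did. POU3F3 and NKX6-1 are homeobox factors, OLIG2 a bHLH factor of oligodendrocytes and motor neurons, PCDH10 a protocadherin and SKOR1 a transcriptional corepressor. H3K27ac lay 144751 and 144708 bp from OLIG2, but 2019 and 1836 bp from PCDH10, and 96373 bp in replicate 1 and 1214 bp in replicate 2 from NKX6-1. None of these 5 promoters had CTCF within 1 kb in either replicate.

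The 5 members of highest CTCF fold enrichment, among those with a symbol other than LOC, differed widely in H3K4me3. CD300LG, of an immune receptor family, had CTCF of 104 and 100 fold, with H3K4me3 of 14.5 and 8.63. ESR2, which codes for estrogen receptor beta, had CTCF of 76.3 and 66.9 and H3K4me3 of 27.4 and 17.1, and CSMD3, a large membrane protein gene of the brain, had CTCF of 59.1 and 80.7 and H3K4me3 of 37.1 and 22.8. SCARA5, a scavenger receptor, and GDF5, a ligand of joint formation, had CTCF of 61.6 and 65.8, and 58.9 and 59.2, with H3K4me3 of no more than 10.7 in either replicate. Of these 5 genes, CSMD3 was above the upper quartile of all members (30.8 and 16.1) in both replicates, and ESR2 in replicate 2 only. CD300LG, SCARA5 and GDF5 were under it in both. ALK, with CTCF of 59.1 and 49.6, had H3K4me3 of 53.0 and 26.3. Among the members named for the highest H3K4me3, PTK2B had CTCF of 27.9 and 37.4, and SLC6A4 21.4 and 23.4. LRRC24, FBXL15, PSD, SH2B2, UNC13B, PYGB, ZNF385B and LIPI had none. A relation between the strength of CTCF and H3K4me3 was not tested.

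Where CTCF was present, its fold enrichment did not separate the groups. The median was 18.4 and 16.6 at H3K4me3-only promoters and 16.6 and 16.1 at promoters with both marks in replicates 1 and 2. The CTCF summit was at a median of 525 and 515 bp from the TSS, compared with 373 and 372 bp. The core CNAGGNGGC was found within 100 bases of the summit in 69 of 276 replicate 1 peaks at H3K4me3-only promoters (25%), 22.6% of 2593 peaks at promoters with both marks and 19.5% of all 39854 peaks. The following 60 bases are shown for the 3 members with the strongest CTCF and a core near the summit, on the strand of the core, with the core in capitals, as examples of the sites behind these values.
ALK (chr3:109409858-109409917, minus strand): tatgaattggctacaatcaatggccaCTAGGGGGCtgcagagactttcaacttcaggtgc
EPHB1 (chr13:75905198-75905257, minus strand): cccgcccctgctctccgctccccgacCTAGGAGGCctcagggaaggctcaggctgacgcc
EDAR (chr3:47396222-47396281, plus strand): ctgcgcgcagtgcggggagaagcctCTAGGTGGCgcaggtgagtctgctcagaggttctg

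ALK, a receptor tyrosine kinase of the nervous system, had CTCF of 59.1 and 49.6, and its core lay 11 bp from the summit. EPHB1, an ephrin receptor, had 48.3 and 59.7, with the core at 55 bp, and EDAR, the ectodysplasin receptor of skin appendages, had 45.3 and 47.2, with the core at 6 bp. Members with stronger CTCF, such as CD300LG and ESR2, had no match to these letters within 100 bases, which says nothing about other forms of the motif.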

How the data were processed

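H3K4me3, H3K27ac and CTCF were profiled in 2 replicates each, assigned from the sample titles. Per the labels and methods, the authors mapped reads to Sscrofa11.1 with Bowtie2, kept uniquely mapped pairs, removed duplicates and called narrow peaks per library with MACS2 (versions not given in the sources used here). The deposited lists give a fold enrichment (ratio over the control), p-value and q-value as −log10, and an integer score by the authors, which was not used. The methods state a q-value of 0.01, and 0.0565 to 3.06% of the deposited peaks on chromosomes 1 to 18 and X had a higher q-value. Peaks elsewhere, and the input samples, were not used here. The series holds 1 histone input and 1 CTCF input, so the fold enrichments of replicates may share a control and not be fully independent.

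Genes and the TSS, the 5′ end of the gene, came from RefSeq annotation release 106 of Sscrofa11.1, and positions are 1-based. A peak counted when any base lay within 1000 bp of the TSS, and the peak of highest fold enrichment was taken. Sequences were read from the Sscrofa11.1 genome. The members and gene lists were chosen with earlier results of these data known. Lists match gene symbols, so genes with other symbols are missed. COL6A1 and TUBB3 markers were not found.

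Genes named, with LOC symbols left out of the rankings, were the 10 members of highest H3K4me3 fold enrichment, the 5 widest, the 5 of highest CTCF, the 3 strongest of each list, the 3 nearest to the 1 kb limit on each side, runs of 4 or more, and the markers. Others were chosen after their values were seen, among them the HOX genes listed. For CTCF sites, members without the core near the summit were passed over. Peak search, distances and motif search were tested on simulated data. Intervals are exact Clopper-Pearson 95% intervals. The alternatives were 500 bp and 2 kb, peak summits, any transcript start, 2 stricter q-values, no H3K27ac within 5 kb, H3K27ac absent in 1 replicate, genes without close neighbours or LOC symbols, and each replicate alone. Python 3.11.15, numpy 2.4.6, pandas 2.3.3, scipy 1.17.1 and matplotlib 3.10.9 were used.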

Additional observations from a re-analysis of the deposited data

How the results depend on the processing

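The number of H3K4me3-only promoters stayed within 1.5 times of 1608 under all 12 alternatives, from 1413 with no H3K27ac within 5 kb to 1993 without replicate 2. The CTCF share of 19.5% moved to 15.0% with peaks within 500 bp and to 24.5% with peaks within 2 kb, while the difference from promoters with both marks kept its sign under all alternatives and moved beyond its SD only with peak summits, to -7.07 points. The CpG-rich share of 59.0% moved to 56.5% with 2 kb, 64.4% with peak summits and 55.9% with any transcript start, and was 55.6 to 57.6% with a replicate left out. The share of developmental transcription factor genes moved to 25.2% with peak summits. The median H3K4me3 fold enrichment was 11.3 to 21.2 with a replicate left out. Of 72 values, 64 kept within these limits, and the cause of the other 8 shifts was not tested. The CTCF difference was taken within each library and so is already paired. No paired analysis was possible because of the design for the other results, which came from no test. The lists hold no read counts, so absence of an H3K27ac peak means that none was called at this depth.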

Other observations

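The 339 promoters with H3K4me3 in both replicates and H3K27ac in 1 replicate stood between the groups in H3K4me3 fold enrichment and CTCF share, but not in CpG content. H3K27ac was present in replicate 2 at 279 of them and in replicate 1 at 60, with a median fold enrichment of 3.61 and 3.46. At promoters with both marks the H3K27ac medians were far higher, at 19.95 in replicate 2 and 16.8 in replicate 1. Over all H3K27ac peaks, at promoters or elsewhere, they were 4.75 and 4.84. Their median H3K4me3 fold enrichment was 33.5 in replicate 1 and 16.8 in replicate 2, and a CTCF peak lay within 1 kb of 22.7% and 26.5%. CpG-rich promoters made up 54.3%, less than at H3K4me3-only promoters (59.0%) and at promoters with both marks (72.7%). The 339 were 1.74% of all protein-coding genes, and included 11 of 120 ion channel genes, 9 of 331 solute carriers, 6 of 84 FOX, SOX, GATA and T-box genes and 4 of 164 homeobox genes.

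The 5 of these promoters with the strongest H3K4me3, a choice made after the values were seen, were RCE1, NUDT16L1, NAT6, KCNJ8 and BCL11A. RCE1, NUDT16L1, NAT6 and BCL11A had H3K27ac just beyond 1 kb in the other replicate, at 1027, 1072, 1189 and 1008 bp. KCNJ8, a potassium channel gene, was different, with H3K27ac of 4.21 fold at 23 bp in replicate 1 and no peak nearer than 85067 bp in replicate 2, and its H3K4me3 was 62.0 and 39.8.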
